A study of Mus musculus with 8 samples.

Results

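Transcripts of 10 genes known from megakaryocytes and platelets (Pf4, Ppbp, Gp1ba, Gp1bb, Gp5, Gp6, Gp9, Treml1, Clec1b and Nfe2) were measured by bulk RNA-seq in mouse haematopoietic stem cells (HSCs). The genes were chosen by symbol, and each was matched to 1 of the 55487 gene rows through its versioned Ensembl identifier. Of the 10, 9 had at least 1 read and 8 passed the filter on low counts, out of 14360 tested genes. The study compared 4 libraries labelled miR652-KD with 4 labelled NTC, an abbreviation the labels do not spell out. The series title concerns pseudouridine synthase 10 and ageing of HSCs, and the contrast bears on transcripts after knockdown of miR-652, a microRNA. Both groups are labelled as HSCs sorted into lysis buffer and prepared with Smart-seq2, which amplifies full-length cDNA from small amounts of RNA. The labels do not give the mouse strain, the age, the sorting markers, the means of knockdown or whether replicates came from separate animals, so p-values reflect library-to-library spread, which may be technical alone.

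Megakaryocytes shed platelets into the blood, and their transcription factor NF-E2 drives the late steps of that process. Platelets adhere to injured vessels through the glycoprotein Ib-IX-V complex, are activated by collagen and podoplanin receptors, and release chemokines from their alpha granules. Part of the mouse HSC pool is known to be platelet-primed: such cells already hold megakaryocyte transcripts and give rise to platelets readily.

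None of the 8 tested genes differed between miR652-KD and NTC libraries past the threshold (edgeR quasi-likelihood test, Benjamini-Hochberg adjusted p below 0.05; smallest adjusted p = 0.918, for Pf4). Their log2 differences ran from -0.16 for Nfe2 to 0.42 for Pf4, and every 95% interval included 0. Per length of transcript, Nfe2, Pf4 and Gp9 were above the other members in every library, whereas Gp6 had no read and Gp1bb had 7 reads in all. The members varied between libraries of the same group, up to 7.25-fold for Clec1b within NTC, and did not vary together.

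The sequences below give the microRNA that was targeted, with its seed (bases 2 to 8) in capitals; both arms are shown because the labels do not say which was targeted (RefSeq, GRCm38.p6, chromosome X, plus strand, chrX:142739060-142739080 for the 3p arm and chrX:142739020-142739043 for the 5p arm).
mmu-miR-652-3p: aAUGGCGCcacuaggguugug
mmu-miR-652-5p: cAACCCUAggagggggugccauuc
The letters pairing with the 3p seed, GCGCCAT, were looked for on the sense strand in the longest coding transcript of each gene in GENCODE M21. They were found in 8.34% of 21877 genes, and among the 10 members in Gp1bb alone, at bases 1143 to 1149 of its transcript. The letters pairing with the 5p seed, TAGGGTT, were found in 9.16% of genes and in 0 of the 10 members. The match in Gp1bb is shown with 10 bases on either side and the 7 matching letters in capitals; whether it lies in coding sequence was not looked up.
Gp1bb transcript: tggctgccccGCGCCATgcagctgcgc

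Promoters of 4 members are shown next, as the 250 bases before the annotated start (RefSeq, GRCm38.p6), because they pair the chemokine genes that lie side by side on chromosome 5 and the best and next best detected subunits of the adhesion complex. Capitals mark letters of a GATA motif (AGATAA, or TTATCT on the other strand) and of an ETS motif (AGGAAG, or CTTCCT), the motifs of factor families known from megakaryocyte promoters.
Pf4 (chr5:90772185-90772434, plus strand): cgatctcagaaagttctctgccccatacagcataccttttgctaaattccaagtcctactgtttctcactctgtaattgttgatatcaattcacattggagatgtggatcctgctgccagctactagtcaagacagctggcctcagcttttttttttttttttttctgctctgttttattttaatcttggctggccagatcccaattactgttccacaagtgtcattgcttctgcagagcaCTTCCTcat
Ppbp (chr5:90768268-90768517, plus strand): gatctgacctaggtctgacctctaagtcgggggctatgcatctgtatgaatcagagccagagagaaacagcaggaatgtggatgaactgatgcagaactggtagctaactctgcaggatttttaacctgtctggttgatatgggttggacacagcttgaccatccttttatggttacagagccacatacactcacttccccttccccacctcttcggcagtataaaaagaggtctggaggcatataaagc
Gp9 (chr6:87777820-87778069, plus strand): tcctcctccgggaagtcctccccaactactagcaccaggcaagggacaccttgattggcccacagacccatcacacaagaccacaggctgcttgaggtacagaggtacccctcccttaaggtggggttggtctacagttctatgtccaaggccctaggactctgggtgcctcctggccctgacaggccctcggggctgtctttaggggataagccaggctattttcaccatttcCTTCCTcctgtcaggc
Gp5 (chr16:30310782-30311031, minus strand): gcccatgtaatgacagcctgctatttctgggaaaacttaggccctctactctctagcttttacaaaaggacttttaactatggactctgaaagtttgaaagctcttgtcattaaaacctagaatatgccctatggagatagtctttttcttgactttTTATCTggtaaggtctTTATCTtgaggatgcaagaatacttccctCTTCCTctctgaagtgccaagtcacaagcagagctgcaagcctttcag
A promoter was found for 9 of the 10 members. The ETS letters were present in 4 of the 9 (Pf4, Gp1ba, Gp5 and Gp9), against 29.5% of 32851 annotated promoters of the same length. The GATA letters were present in 2 of the 9 (Gp5 and Gp6), against 10.0% of all promoters. The core letters of an NF-E2 site, TGAGTCA or TGACTCA, were present in 0 of the 9 windows and in 4.5% of all promoters. These motifs do not overlap one another in the windows shown, and a match describes letters, not binding.

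The libraries held 14.68 to 19.89 M reads in genes in miR652-KD and 14.02 to 16.76 M in NTC, with 16832 to 17357 genes detected in miR652-KD and 16462 to 17733 in NTC. Values are given as CPM, read counts scaled to a library of 1 M reads in genes; with no molecular identifiers, amplified copies count as reads. The knockdown could not be checked here: the gene of the miR-652 precursor, Mir652, had 5, 0, 0 and 0 reads in replicates 1 to 4 of miR652-KD and 1, 0, 0 and 2 in those of NTC, and these libraries do not measure mature microRNAs. The label HSC was checked against 10 HSC markers, all of which had reads, such as Procr, the endothelial protein C receptor, at 156 ± 4.55 CPM in miR652-KD and 147 ± 32.04 CPM in NTC (SD, n = 4 each). Some of the HSC markers stood apart in level between the 2 sets of libraries, in both directions. These lists were chosen with earlier results of these data known, so their shares below are a description only. The log2 difference was above 0 for 5 of 10 and below 0 for 5, with a median of 0.01. The groups did not overlap for 4 of the 10 markers, beside 4.5% of all tested genes. The log2 differences of these 4 were 0.62 for Ly6a (Sca-1), 0.60 for Mllt3, -0.34 for Kit and -0.71 for Cd34. By edgeR, 6 of 10 had an unadjusted p below 0.05, beside 5.99% of all tested genes. edgeR called 0 of the 10 (smallest adjusted p = 0.125, for Cd34), beside 0.0418% of all tested genes. DESeq2 called 2, Ly6a and Cd34, beside 0.425% of all tested genes. Cd34, a progenitor antigen that is low on long-term mouse HSCs, averaged 312 ± 40.3 CPM in miR652-KD and 514 ± 6.29 CPM in NTC (SD, n = 4 each). Of 6 endothelial markers, 5 had reads, and they summed to 106 to 149 CPM in miR652-KD and 152 to 211 CPM in NTC, mostly from Pecam1, Tek and Emcn, which HSCs are also known to express. Cdh5, the endothelial cadherin, had 0 reads in all 8 libraries. Of 8 lymphoid markers, 6 had reads, and they summed to 44.0 to 87.0 CPM in miR652-KD and 48.8 to 78.4 CPM in NTC, with the T-cell gene Cd3e at 0 reads throughout. Other blood lineages were present unevenly. The 10 erythroid markers summed to 38.2 to 2336 CPM in miR652-KD and 2357 to 5736 CPM in NTC, without overlap. The 8 neutrophil markers summed to 112 to 2053 CPM in miR652-KD and 167 to 11992 CPM in NTC, with overlap. The log2 difference was below 0 for 9 of 10 tested erythroid and 7 of 7 tested neutrophil markers. edgeR called 0 of either list, beside 0.0418% of all tested genes. DESeq2 called 1 erythroid (Alas2) and 4 neutrophil markers (S100a8, S100a9, Ngp and Csf3r), beside 0.425% of all tested genes. In such bulk samples, fewer cells of a type and less RNA per cell cannot be told apart, and the part of these cells, and of the differences in HSC markers, in the values below was not tested. Platelet genes were detected unevenly. Tubb1, the megakaryocyte beta tubulin, had 1.71 CPM in miR652-KD replicate 3, 6.42 CPM in NTC replicate 2 and at most 0.07 CPM in the other libraries. Myl9, a myosin light chain of platelets, had 0 reads in every library. Both were named after their values were seen. Others were present in every library: Pf4 at 60.0 to 128 CPM in miR652-KD and 49.9 to 76.9 CPM in NTC. Selp, the P-selectin gene, was at 90.75 to 108 CPM in miR652-KD and 89.3 to 133 CPM in NTC.

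Nfe2 (ENSMUSG00000058794.12, chromosome 15, 103248212 to 103258403, mm10, minus strand) encodes the blood-cell-restricted subunit of NF-E2, a factor needed in mice for platelet release. It had 606, 649.5, 543 and 699.7 CPM in replicates 1 to 4 of miR652-KD, against 650.3, 844, 571 and 735 CPM in those of NTC. The groups overlapped, with the highest value in NTC replicate 2 and the lowest in miR652-KD replicate 3. Its means were 625 ± 66.5 CPM in miR652-KD and 699.9 ± 117 CPM in NTC (SD, n = 4 each), and the log2 difference was -0.16 with SE 0.14 (adjusted p = 0.989 by edgeR). The 95% interval of this difference, -0.46 to 0.14, corresponds to 0.73-fold to 1.1-fold. Nfe2 was the steadiest member, with a 1.55-fold span over the 8 libraries, and it had reads enough (8891 to 12124 in each library) that counting error was small.

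Pf4 and Ppbp are neighbours on chromosome 5 and encode chemokines of the platelet alpha granule, platelet factor 4 and the precursor of neutrophil-attracting chemokines. Pf4 (ENSMUSG00000029373.7, 90772435 to 90773383, plus strand) was at 86.5, 74.5, 128 and 60.0 CPM in replicates 1 to 4 of miR652-KD, against 76.7, 49.9, 58.6 and 76.9 CPM in those of NTC. One library, miR652-KD replicate 3, lay well above all others, and the remaining miR652-KD values overlapped those of NTC. The means were 87.3 ± 29.4 CPM in miR652-KD and 65.6 ± 13.5 CPM in NTC (SD, n = 4 each), with a log2 difference of 0.42 (SE 0.24, 95% interval -0.12 to 0.96; edgeR adjusted p = 0.918). Without miR652-KD replicate 3 it was 0.18.

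Ppbp (ENSMUSG00000029372.7, 90768518 to 90770063, plus strand) was lower and more scattered, at 8.38, 1.95, 5.13 and 5.48 CPM in replicates 1 to 4 of miR652-KD and 2.82, 3.21, 2.45 and 10.04 CPM in those of NTC. NTC replicate 4 held 147 reads of Ppbp, against 41 to 45 in the other NTC libraries, so its value (95% Poisson interval 8.49 to 11.81 CPM, for counting error only) was separate from theirs. The log2 difference was 0.18, with a 95% interval of -1.47 to 1.83 that allows anything from 0.36-fold to 3.55-fold (SE 0.74; edgeR adjusted p = 0.999). The ratio of Pf4 to Ppbp CPM ran from 10.3 to 38.3 in miR652-KD and from 7.7 to 27.2 in NTC, so these neighbouring genes did not keep a fixed proportion from library to library.

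The glycoprotein Ib-IX-V complex binds von Willebrand factor. Its subunits are encoded by Gp1ba (the alpha chain, which holds the binding site), Gp1bb (the beta chain), Gp9 and Gp5. Gp9 (ENSMUSG00000030054.4, chromosome 6, 87778072 to 87779768, plus strand) was the best detected, at 104, 126, 81.9 and 63.4 CPM in replicates 1 to 4 of miR652-KD, against 68.6, 92.0, 81.4 and 40.25 CPM in those of NTC. The groups overlapped, although the 2 highest values were both of miR652-KD and the lowest was NTC replicate 4. Its means were 93.9 ± 27.3 CPM in miR652-KD and 70.5 ± 22.3 CPM in NTC (SD, n = 4 each), a log2 difference of 0.41 (SE 0.28, 95% interval -0.22 to 1.05; edgeR adjusted p = 0.951). Leaving out miR652-KD replicate 2 gave 0.25, and leaving out NTC replicate 4 gave 0.23.

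Gp5 (ENSMUSG00000047953.7, chromosome 16, 30307685 to 30310779, minus strand), the thrombin-cleaved subunit, was at 19.4, 47.7, 53.3 and 31.3 CPM in replicates 1 to 4 of miR652-KD and 45.1, 42.1, 35.8 and 16.5 CPM in those of NTC. Each group had 1 library at or under 19.4 CPM, and the rest lay between 31.3 and 53.3 CPM. The log2 difference was 0.12 (SE 0.38, 95% interval -0.72 to 0.97; edgeR adjusted p = 0.999). Gp1ba (ENSMUSG00000050675.7, chromosome 11, 70639122 to 70642036, plus strand) was at 24.8, 11.5, 12.3 and 5.19 CPM in replicates 1 to 4 of miR652-KD, against 13.6, 14.8, 10.9 and 10.1 CPM in those of NTC. Both its highest and its lowest value were thus of miR652-KD, whose coefficient of variation was 61.0%, against 17.8% in NTC; this difference in spread was not tested. The log2 difference of Gp1ba was 0.13 (SE 0.46, 95% interval -0.91 to 1.16; edgeR adjusted p = 0.999).

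Gp1bb (ENSMUSG00000050761.4, chromosome 16, 18620317 to 18622403, minus strand) had 0, 1, 0 and 0 reads in miR652-KD replicates 1 to 4 and 4, 2, 0 and 0 in those of NTC, and was not tested. These counts say little about the gene, because 1938 of its 2087 exonic bases (92.86%) are shared with exons of Sept5 or Gm49601 on the same strand, and how the counting treated reads on 2 genes is not given in the sources used here. Sept5 itself had 1 read over the miR652-KD libraries, in replicate 1, and 13 and 18 reads in NTC replicates 3 and 4, with 0 in the other libraries, and Gm49601 had 0 reads throughout. The beta chain could therefore not be compared with the other subunits of the complex.

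Gp6, Clec1b and Treml1 encode surface receptors of platelets. Gp6 (ENSMUSG00000078810.4, chromosome 7, 4363965 to 4397744, minus strand), the collagen receptor, had 0 reads in every library, which allows up to 0.0439 CPM over the miR652-KD libraries and 0.0498 CPM over the NTC libraries (a floor of 3 counts over the group). Clec1b (ENSMUSG00000030159.15, chromosome 6, 129397297 to 129409335, plus strand), the podoplanin receptor, was at 1.84, 1.28, 6.84 and 2.54 CPM in replicates 1 to 4 of miR652-KD, against 3.09, 4.14, 4.95 and 0.68 CPM in those of NTC. Its extremes were far apart: 136 reads in miR652-KD replicate 3 (95% Poisson interval 5.74 to 8.09 CPM) and 10 reads in NTC replicate 4 (0.33 to 1.26 CPM). The log2 difference was -0.05, and its 95% interval of -2.06 to 1.96 leaves the comparison undecided within about 0.24-fold to 3.9-fold (SE 0.90; edgeR adjusted p = 0.999).

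Treml1 (ENSMUSG00000023993.7, chromosome 17, 48359916 to 48367176, plus strand) encodes an alpha-granule receptor that reaches the platelet surface on activation. It was at 13.4, 8.39, 14.6 and 10.5 CPM in replicates 1 to 4 of miR652-KD and 7.33, 20.3, 6.32 and 7.86 CPM in those of NTC. Apart from NTC replicate 2, the highest of all 8, the NTC values lay below those of miR652-KD. With all libraries, the log2 difference was 0.16 (SE 0.47, 95% interval -0.90 to 1.22; edgeR adjusted p = 0.999). Without NTC replicate 2 it was 0.73, and the gene still did not pass (edgeR adjusted p = 0.844). NTC replicate 2 also held most of the Tubb1 reads and the highest Nfe2 value, and Car1, an erythroid carbonic anhydrase, at 387 CPM against at most 9.0 CPM elsewhere; its erythroid content was not tested as a part of the Treml1 value.

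**Figure D1:**
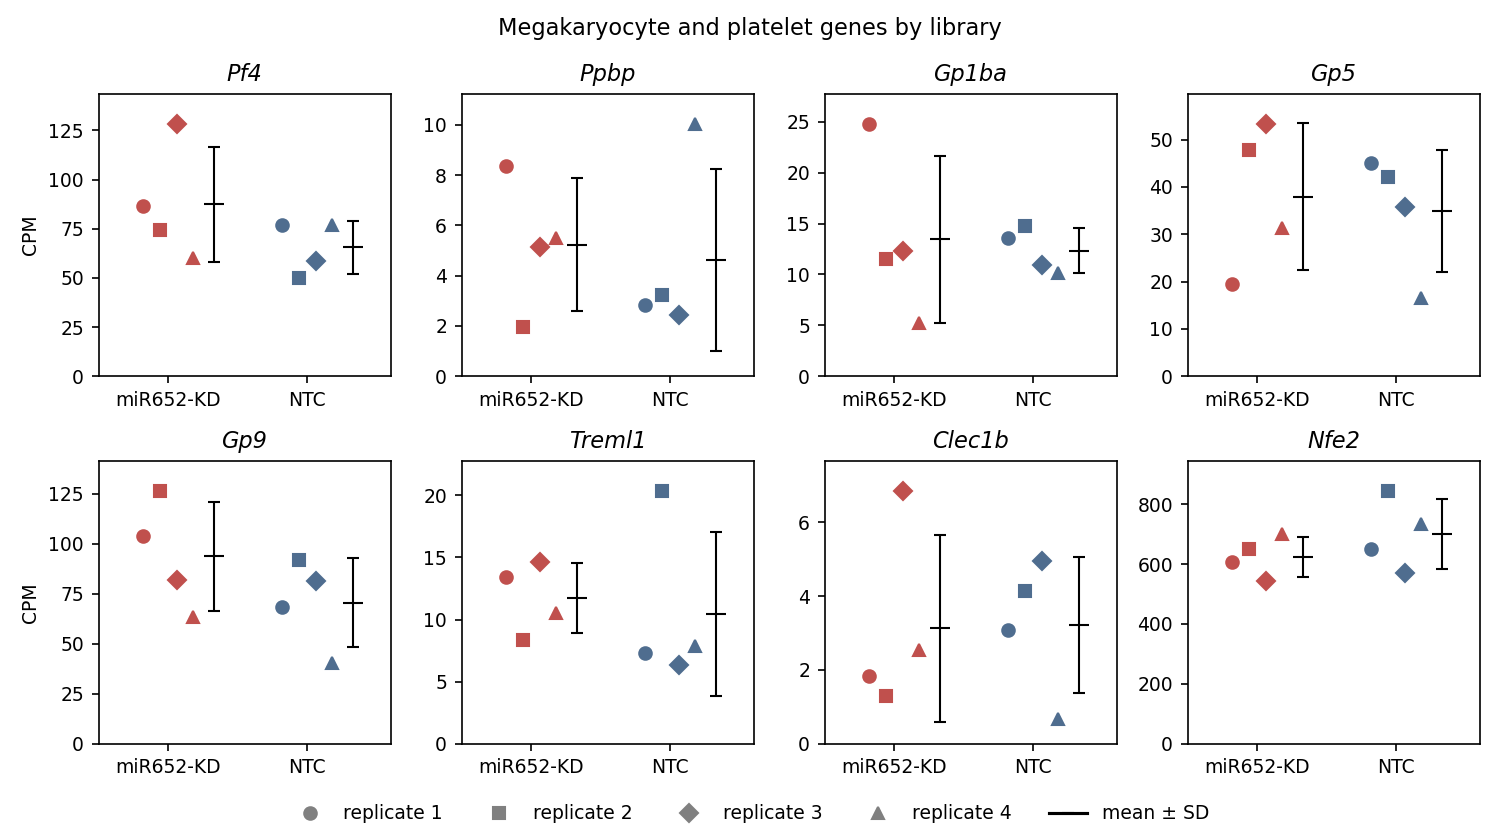
CPM of the 8 tested genes (vertical axes from 0, a scale per gene) in the 4 miR652-KD and the 4 NTC libraries, 1 symbol per replicate, with the mean and SD of each group beside the points. The groups overlap in every gene; Treml1 in NTC replicate 2 (20.3 CPM) and Ppbp in NTC replicate 4 (10.04 CPM) stand above the other NTC libraries.

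Across the comparison, 0 of 8 tested members passed edgeR's threshold, and 0.0418% of all 14360 tested genes did (0.0279% higher and 0.0139% lower in miR652-KD). At so low a background a count of 0 among 8 genes is not a result about these genes. None of the members had an unadjusted p below 0.05, against 5.99% of all tested genes, and DESeq2 likewise called 0 of the 8, against 0.425% of all tested genes. The groups overlapped in all 8, while they did not overlap in 4.5% of all tested genes (2.35% higher and 2.15% lower in miR652-KD). Of the 8 members, 6 had a log2 difference above 0 and 2 below, with a median of 0.14, beside 49.5% above 0 and a median of 0.00 over all tested genes. Without NTC replicates 3 and 4, the libraries of high neutrophil transcripts, the median of the members was -0.13.

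**Figure D2:**
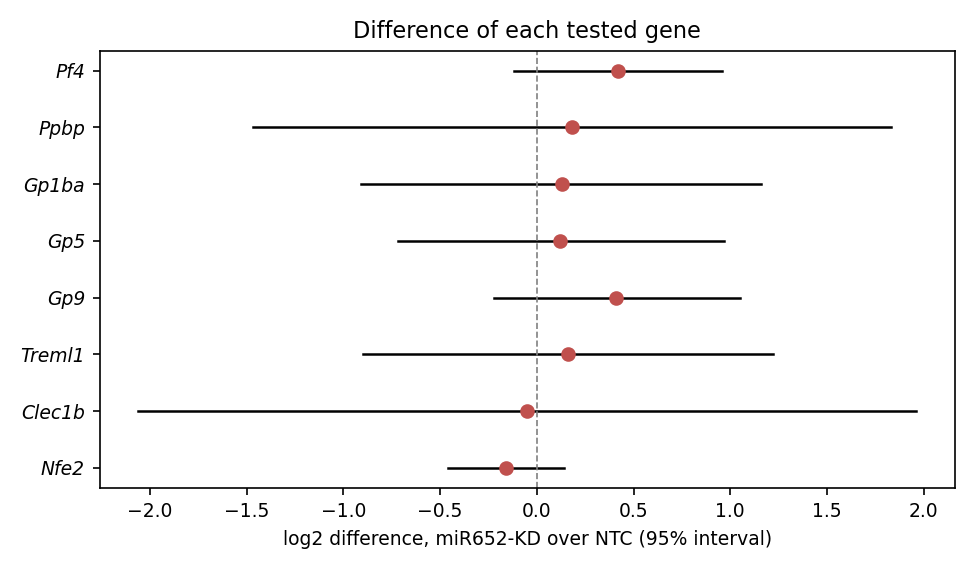
Log2 difference of miR652-KD over NTC (horizontal axis) for each tested gene, as the edgeR estimate (point) with its 95% interval (line). Every interval includes 0; it is narrowest for Nfe2 (-0.46 to 0.14) and widest for Clec1b (-2.06 to 1.96).

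Levels of different genes were compared per length, as CPM per kb of the union of annotated exons. Nfe2 came first at 221.6 CPM per kb over the 8 libraries (181.8 to 282.3), and it exceeded Pf4, the next, in 8 of 8 libraries. Pf4 at 106 CPM per kb and Gp9 at 93.3 CPM per kb were not separated, since Pf4 was the higher in 5 of 8 libraries. A wide step followed, to Gp5 at 16.6 CPM per kb, which lay below Gp9 in 8 of 8 libraries. Treml1 at 7.92 CPM per kb lay below Gp5 in 7 of 8 libraries. Gp1ba at 4.75 CPM per kb and Ppbp at 4.55 CPM per kb could not be ordered, as Gp1ba was the higher in 5 of 8. Clec1b was last of the tested members at 0.621 CPM per kb. Per kb of the longest coding transcript in place of all exons the order was the same, with Nfe2 at 353 CPM per kb and Clec1b at 2.91 CPM per kb.

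Set beside the tested protein-coding genes, the CPM per kb of Nfe2 was above that of 98.2% of them and that of Pf4 above 95.9%, with Gp9 close behind. The values of Treml1 and Ppbp were above those of 52.4% and 37.0%. Clec1b stood above 5.7%, a rank that depends on its long exon union of 5.1 kb, against 1.09 kb for its longest coding transcript. Within the adhesion complex, Gp9 exceeded Gp1ba by 12.9 to 37.6 times per kb in miR652-KD and by 12.3 to 23.0 times in NTC, and it exceeded Gp5 by 3.8 to 13.3 times in miR652-KD and by 3.8 to 6.1 times in NTC. In these libraries the reads per kb of Gp9, Gp5 and Gp1ba, subunits of the same receptor, were thus far from equal. Amplified copies count as reads here, and whether the numbers of transcripts differed as much was not tested.

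**Figure D3:**
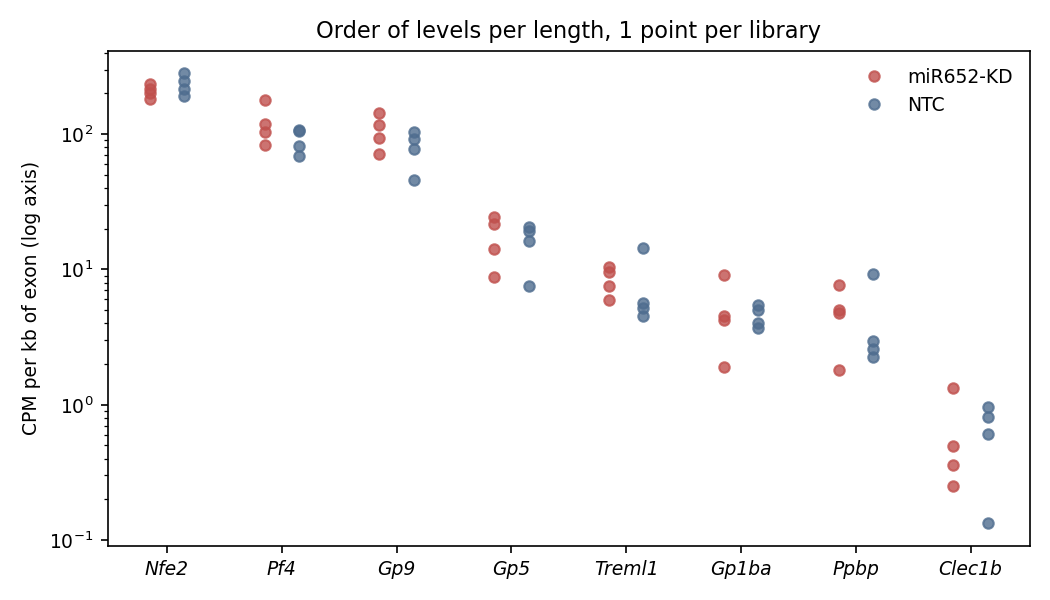
CPM per kb of exon (vertical log axis) of the 8 tested genes, ordered by their mean over all libraries, with 1 point per library for miR652-KD and NTC. Nfe2, Pf4 and Gp9 lie between 45.7 and 282.3 CPM per kb in all libraries, and Clec1b at or below 1.34.

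Nfe2 made up 64.2% to 79.7% of the summed CPM of the members in miR652-KD and 74.0% to 81.9% in NTC. Without it, the members summed to 258, 272, 302.5 and 178 CPM in replicates 1 to 4 of miR652-KD, against 218, 227, 200.4 and 162 CPM in those of NTC. These sums overlapped between groups through miR652-KD replicate 4. The spread of each gene within groups was set beside that of tested genes of like level, those with a mean between 0.5 and 2 times its own. On the log2(CPM + 1) scale, Gp9 and Gp5 had a pooled SD of 0.47 and 0.64, above those of 87.8% and 87.0% of such genes. Clec1b and Ppbp, with an SD of 0.80 and 0.74, were above 38.0% and 37.6%, so that scatter of this size was common at their low level.

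The members did not rise and fall together over the libraries. In miR652-KD replicate 3, Pf4, Gp5 and Clec1b had their highest values, while Nfe2 had its lowest. In NTC replicate 4, Gp5, Gp9 and Clec1b had their lowest values, while Ppbp had its highest. Replicate 1 of miR652-KD combined the highest Gp1ba with a Gp5 value second only to NTC replicate 4 in lowness. NTC replicate 4 also had the highest sum of neutrophil markers, and whether that bears on its low Gp5, Gp9 and Clec1b was not tested.

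**Figure D4:**
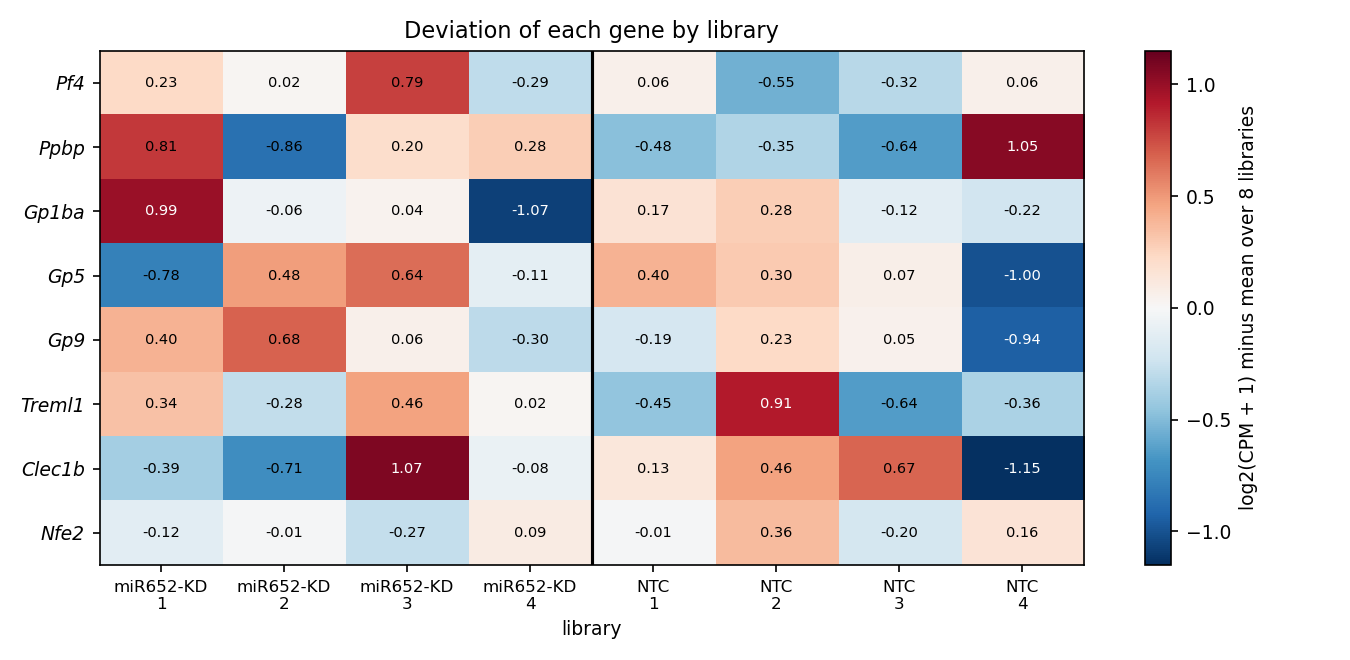
Deviation of each tested gene (rows) from its own mean over the 8 libraries, as log2(CPM + 1), in the miR652-KD libraries (left) and the NTC libraries (right); red is above the mean and blue below. No library is red or blue throughout: NTC replicate 4 runs from -1.15 for Clec1b to 1.05 for Ppbp.

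Likeness of pattern was measured as the mean absolute difference, over the 8 libraries, of centred log2(CPM + 1), among 10346 protein-coding genes whose mean reached 5 CPM. The members' summed CPM was nearest to Ssbp1, Nono, Mrpl30, Zfp207 and Gatc, at 0.052 to 0.068, where a gene with no variation would stand at 0.087. Nfe2 was nearest to Capza1 (0.047), Pf4 to Wbp4 (0.094), Gp9 to Kdm4b (0.142), Gp5 to Mcat (0.155), Gp1ba to Ncdn (0.170) and Treml1 to Ccdc137 (0.178). None of these belongs to the megakaryocyte lists used here, and with this many candidates over 8 libraries such nearness is a description only.

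The wider megakaryocyte and platelet programme was read from 5 further lists of 105 genes in all, of which 97 were tested. Of these 97, edgeR called 0, beside 0.0418% of all tested genes. DESeq2 called 2 (Itgb3 and Plek, both lower in miR652-KD), beside 0.425% of all tested genes. By edgeR, 9 of 97 had an unadjusted p below 0.05, beside 5.99% of all tested genes. The groups did not overlap in 4 of the 97 (4.12%), beside 4.5% of all tested genes in either direction. All 4 were lower in miR652-KD, as were 2.15% of all tested genes. The median log2 difference was -0.04, with 46 genes above 0.

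Adhesion and signalling receptors held 3 of those 4 genes. The log2 difference was above 0 for 6 of 18 tested receptors and below 0 for 12, and the median was -0.27. Itgb3, the beta chain of the platelet fibrinogen receptor, was at 26.2, 33.3, 36.9 and 33.4 CPM in replicates 1 to 4 of miR652-KD, against 69.5, 47.4, 59.0 and 70.7 CPM in those of NTC. Its log2 difference was -0.92 (SE 0.19; edgeR adjusted p = 0.470, DESeq2 adjusted p = 0.0297). Itga2, the alpha chain of a collagen receptor, averaged 2.50 ± 1.75 CPM in miR652-KD and 9.77 ± 4.24 CPM in NTC (SD, n = 4 each; log2 difference -1.96, edgeR adjusted p = 0.787). Itga6, a laminin receptor chain also found on HSCs, averaged 121 ± 38.5 CPM in miR652-KD and 179 ± 20.5 CPM in NTC (SD, n = 4 each), with the highest miR652-KD value, 161.20 CPM, barely under the lowest NTC value, 161.24 CPM.

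Itga2b, the partner chain of Itgb3, had values of 56.1, 76.5, 84.7 and 42.5 CPM in miR652-KD, against 218, 72.6, 68.7 and 94.3 CPM in NTC. It was named here after its values were seen, as were Vwf, Selp, Gata1, Mafg, Mafk, Tubb1 and Myl9. Its log2 difference of -0.79 (edgeR adjusted p = 0.846) was -0.28 without NTC replicate 1, the highest library. Among abundant receptor genes, the log2 difference was 0.21 for the tetraspanin Cd9 (edgeR adjusted p = 0.918) and 0.07 for the junction protein Esam (edgeR adjusted p = 0.999), and neither passed.

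Granule cargo and secretion genes had a median of -0.07, with 7 of 20 above 0. Plek (pleckstrin, a protein kinase C substrate of platelets) was at 45.0, 41.3, 53.8 and 51.5 CPM in miR652-KD, against 161, 76.6, 65.5 and 88.1 CPM in NTC. Its log2 difference was -1.02 (SE 0.26; edgeR adjusted p = 0.611, DESeq2 adjusted p = 0.0426), and it was -0.69 without NTC replicate 1. Vwf, the von Willebrand factor gene that marks platelet-primed HSCs, was at 89.4, 101, 155 and 112 CPM in miR652-KD and 96.05, 91.6, 60.2 and 70.0 CPM in NTC. The groups overlapped and the log2 difference of 0.53 did not pass (SE 0.21; edgeR adjusted p = 0.803), and it was 0.35 without miR652-KD replicate 3. Selp, the P-selectin gene of alpha granules, had a log2 difference of -0.07. The most abundant genes of this list were Srgn, the granule proteoglycan (-0.11), Vamp8, a secretory SNARE (-0.07), and Stxbp2, its regulator (-0.09).

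Transcription factors and partners of Nfe2 had a median of 0.02, with 11 of 21 above 0. Small Maf proteins pair with Nfe2: Mafg had a log2 difference of 0.22 (edgeR adjusted p = 0.999) and Mafk one of -0.87 (edgeR adjusted p = 0.833; -0.49 without NTC replicate 2), with 10.6, 22.3, 30.6 and 23.3 CPM of Mafk in miR652-KD and 29.4, 65.7, 26.1 and 36.7 CPM in NTC. Gata1, the erythroid and megakaryocyte GATA factor, averaged 22.4 CPM in miR652-KD and 22.0 CPM in NTC. The abundant factors Lmo2 (0.03), Meis1 (0.14) and Lyl1 (0.29) did not pass. Cytoskeletal genes, with Pfn1 (0.05), Tmsb4x (0.10) and Bin2 (0.10) the most abundant, were above 0 for 12 of 18, with a median of 0.05. Signalling genes, with Tbxas1 (thromboxane synthase, -0.30), Rap1b (0.04) and Plcg2 (-0.20) the most abundant, were above 0 for 10 of 20, with a median of -0.02.

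**Figure D5:**
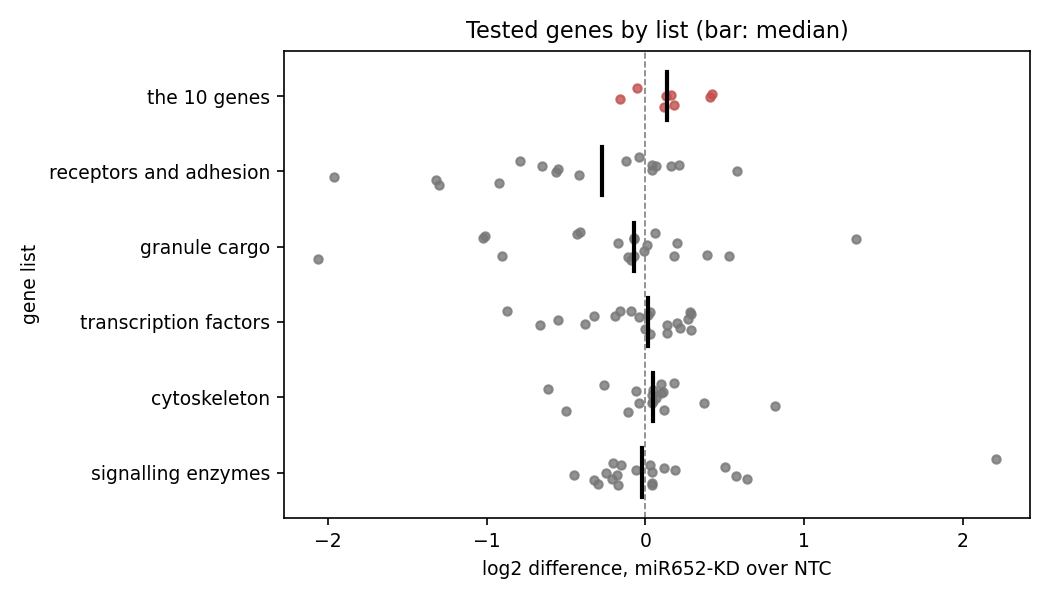
Log2 difference of miR652-KD over NTC (horizontal axis) with 1 point per tested gene (1 receptor gene is counted in its median but not drawn), in the 10-gene set (8 tested, red) and the 5 further lists (grey); black bars are medians. The medians lie between -0.27 for receptors and 0.14 for the 10-gene set.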

How the data were processed

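The deposited files hold whole-number counts of reads per gene, not normalized, 1 file per library; per the submitters' processing notes the authors' tools include HTSeq 0.11.2, HISAT2 2.1.0 and DESeq2, on mm10. Neither strand setting nor annotation release is given in the sources used here. The 5 summary lines of each file were left out of library sizes; they held 9.69% to 16.94% of reads as outside genes and 8.94% to 12.28% as ambiguous. Symbols and exon lengths came from GENCODE M21 of the same build, in which 55394 of 55487 identifiers and all 10 members were matched.

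Differences were tested with edgeR 4.0.16 (R 4.3.3): TMM scaling, filterByExpr at its minimum count of 10 and total of 15, a robust quasi-likelihood fit on all 8 libraries with group as the only term, and Benjamini-Hochberg adjustment over 14360 genes. Log2 differences are miR652-KD over NTC; the SE is the difference divided by the square root of F, and the 95% interval uses the t quantile of the fit's total degrees of freedom. Printed CPM use total gene counts. Depth was 14.02 to 19.89 M reads in genes. Poisson intervals and floors cover counting error only, whereas the 95% intervals of log2 differences also hold the spread between libraries. On simulated counts of this comparison (13658 genes after the filter) 25% of 2-fold and 75% of 4-fold changes were recovered, with 5 unchanged genes called.

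The members and lists were chosen with earlier results of these data known. Genes named from the lists were the 3 of highest mean CPM, any past the threshold and any without overlap between groups; others are marked as named after their values were seen. One gene under this rule is counted in its list and not reported here by name. Alternatives were other scaling (RLE, none), DESeq2 1.42.0, other filters, a non-robust fit, the replicate number as a block and leaving out libraries.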

Additional observations from a re-analysis of the deposited data

Results flagged for a closer look

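In the 64 gene and group combinations looked at, 2 single libraries stood apart from the other 3 of their group by Dixon's ratio of the gap to the range; chance gives about 1 in 20 such combinations. Ppbp was at 10.04 CPM in NTC replicate 4, against 2.45 to 3.21 CPM in the other NTC libraries. Treml1 was at 20.33 CPM in NTC replicate 2, against 6.32 to 7.86 CPM in the other NTC libraries.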

How the results depend on the processing

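Under all 16 alternatives 0 members were called. Over all tested genes DESeq2 called 61 in place of 6, the fit with the replicate number as a block 0, leaving out any 1 library 0 to 0, and leaving out NTC replicates 3 and 4 called 0. Same-numbered libraries did not deviate together (correlations -0.033 to -0.010, and 0 of 4 correlated best with their own number). No pairing was thus seen, although a weak one could go unseen in such correlations. The members' median log2 difference was 0.05 to 0.25 without single libraries and 0.20 with the block, but -0.13 without NTC replicates 3 and 4; the cause was not tested.

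Pf4 (0.18 to 0.56 without single libraries), Gp9 (0.23 to 0.59) and Nfe2 (-0.25 to -0.04) kept their sign under all 16. The sign of small differences turned when single libraries were left out, with ranges of -0.14 to 0.90 for Ppbp, -0.35 to 0.39 for Gp1ba, -0.10 to 0.34 for Gp5, -0.02 to 0.73 for Treml1 and -0.76 to 0.24 for Clec1b. The same held for Stxbp2 (-0.25 to 0.05), Lmo2 (-0.03 to 0.07), Tmsb4x (-0.02 to 0.21), Pfn1 (-0.02 to 0.13), Rap1b (-0.03 to 0.13), Selp (-0.15 to 0.06), Mafg (-0.03 to 0.38) and Gata1 (-0.18 to 0.60). With the block Gp1ba was at -0.07. Without NTC replicates 3 and 4 the differences were -0.07 for Gp1ba, -0.20 for Gp5, -0.24 for Treml1, 0.00 for Vamp8, 0.03 for Selp and -0.34 for Gata1. Clec1b has no value under the filter of 5 CPM in 4 libraries. Among the members, Ppbp and Clec1b have the fewest reads of those tested and the widest intervals; their spread between libraries exceeds counting error.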
